A study of Mus musculus with 12 samples.

Results

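The 10 genes described here were measured in bone marrow-derived macrophages (BMDMs, macrophages grown in culture from mouse bone marrow). They were grouped as post-transcriptional and signalling brakes on the cytokine mRNA Tnf, and that role was not tested for any of them. They are the AU-rich element binding proteins Zfp36, Zfp36l1 and Zfp36l2, the Regnase-type proteins Zc3h12a and Zc3h12c, the Roquin gene Rc3h1, and the MAPK phosphatases Dusp1, Dusp2, Dusp5 and Dusp16. They were chosen by name, and their symbols were matched to the gene identifiers of the count table. All 10, of 48526 genes in the table, were found and passed the filter on low counts.

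The series compared homozygous HSS9 knockout (KO) mice, which lack an enhancer segment upstream of Tnf, with controls labelled HSS9+/+ littermates (WT). Male mice of 7 to 10 weeks were used. BMDMs of each genotype received PBS (UT) or lipopolysaccharide (LPS, a bacterial cell wall component) for 6 hr, and total RNA was sequenced. There were 4 groups of 3 libraries (WT and KO, each UT or LPS), 12 in all. Both genotypes were grown for 6 d in medium with L929-conditioned medium. The labels call the WT mice littermates, whereas the methods describe purchased C57BL/6 mice and a KO colony bred as homozygous pairs, so the genotype and a difference of background or colony cannot be told apart. No source says whether the 3 libraries of a group came from separate mice, so the p-values measure the spread between these libraries, which may be technical.

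Library totals ranged from 26154533 to 36423921 counts. Values are CPM, the count of a gene relative to the TMM-adjusted total of its library, and a level compared between genes is CPM per kb of exon. The marker sums of this paragraph are instead CPM of the unadjusted library totals, which is another scale. The UT and LPS sums were not compared on the TMM scale. All 9 macrophage markers had counts in every group. Their summed level was 37050 to 39230 CPM in UT libraries, 20100 to 21410 CPM in WT LPS libraries and 22320 to 23790 CPM in KO LPS libraries. Of the 7 neutrophil markers 5 or 6 had counts in each group, and they summed to 24.0 to 64.4 CPM, with the defining marker Ly6g at 0. Their sum was 24.0 to 25.6 CPM in WT UT and 47.9 to 53.4 CPM in KO UT libraries. The 4 stromal markers summed to 1.03 to 2.62 CPM in WT LPS and 3.83 to 4.85 CPM in KO LPS libraries. The markers of B, T and mast cells each summed to under 1 CPM, and those of dendritic cells to 0.684 to 1.63 CPM. Small structured RNAs took 3.00 to 3.25% of counts in WT UT libraries, 6.64 to 7.98% in KO UT, 4.04 to 6.89% in WT LPS and 3.23 to 3.43% in KO LPS. The 3 WT LPS libraries, the reference for KO LPS, differed from each other by a chi-square of 12.4 to 46.4 per degree of freedom over their 3 pairs, against 3.8 to 14.1 for the pairs of the other groups. In such bulk libraries, fewer cells of a type and less RNA per cell cannot be told apart.

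Tristetraprolin, the protein of Zfp36, binds AU-rich elements in the 3' UTR of Tnf and other cytokine mRNAs and brings in the machinery that removes the poly(A) tail. Regnase-1, the protein of Zc3h12a, is an endoribonuclease that cuts mRNAs at stem-loops of their 3' UTR, and Roquin-1, the protein of Rc3h1, binds such stem-loops and recruits the deadenylase. The p38 MAPK pathway, which LPS activates through TLR4, phosphorylates tristetraprolin through the kinase MK2 and thereby holds back decay of its targets. The DUSP phosphatases remove the activating phosphates from MAPKs and so bound this signal.

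The binding motifs of these proteins are shown first, since Tnf and several of the 10 genes carry them. The annotated 3' UTR of 1 transcript per gene (GENCODE M21 on GRCm38) was searched on the mRNA strand for the AU-rich pentamer ATTTA, for the nonamer TTATTTATT, which contains the pentamer, and for a hairpin of 6 paired bases closed by 3 loop bases of the order pyrimidine, purine, pyrimidine, the shape that Roquin and Regnase proteins are known to bind. Of 12143 protein-coding genes tested, 7.37% held at least 1 nonamer and 9.08% at least 1 hairpin. The windows shown here are 29 bases long, written 5' to 3' as DNA, with the nonamer or the hairpin in capitals. Not every match of a gene is shown. The Tnf nonamer shown is at chr17:35199678-35199706 and the Tnf hairpin shown at chr17:35199578-35199606, both on the minus strand. The Zfp36 nonamer is at chr7:28376951-28376979 and the Dusp1 nonamers are at chr17:26506159-26506187 and chr17:26505870-26505898, all on the minus strand. The Zc3h12a hairpins shown are at chr4:125119062-125119090 and chr4:125118880-125118908, and the Zc3h12c hairpin is at chr9:52113462-52113490, all on the minus strand. The Rc3h1 hairpin shown is at chr1:160971653-160971681 on the plus strand.
Tnf, nonamer: tatttattatTTATTTATTatttatttat
Zfp36, nonamer: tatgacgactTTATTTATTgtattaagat
Dusp1, first nonamer: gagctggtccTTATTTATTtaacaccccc
Dusp1, second nonamer: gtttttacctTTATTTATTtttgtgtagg
Tnf, hairpin: cagacatGTTTTCTGTGAAAACggagctg
Zc3h12a, first hairpin: ccctgttGATACACATTGTATCtctgtca
Zc3h12a, second hairpin: gctagttAGGCACCATGTGCCTgctctct
Zc3h12c, hairpin: caataatCTGAACCATGTTCAGcaaactt
Rc3h1, hairpin: agccaatAACTTCTGTGAAGTTgcctttt

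The nonamer count was 5 in Tnf, where the copies overlapped, 2 in Dusp1 and 1 each in Zfp36, Zfp36l1, Zfp36l2 and Rc3h1. The other 5 genes had 0 in the annotated window. The hairpin count was 4 in Rc3h1, of which 2 overlapped, 3 in Zc3h12a, 2 in Tnf and 1 in Zc3h12c. A count of at least 2 hairpins was found in 0.964% of the 12143 genes. Among the 10 genes and Tnf, pentamers were densest in Tnf (10.5 per kb), Dusp2 (6.89 per kb) and Dusp1 (5.80 per kb), against a median of 1.27 per kb over all genes, while Dusp5 had 0.902 and Dusp16 1.24 per kb. The 3' UTR of Rc3h1 was 7181 bases long and that of Zc3h12c 4062, against a median of 999, and longer windows hold more matches. These matches describe letters in an annotated window, and no binding was measured.

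Without stimulation Zfp36l2 and Zfp36 stood highest per length. In WT UT libraries Zfp36l2 was at 72.5 ± 0.424 CPM per kb (SD, n = 3), Zfp36 at 52.1 ± 1.40 and Dusp1 at 40.4 ± 2.34. Below them came Zfp36l1 (21.4), Dusp5 (16.2), Zc3h12a (11.6), Rc3h1 (7.57), Zc3h12c (2.92), Dusp2 (2.60) and Dusp16 (1.47 CPM per kb). The libraries of neighbours in this order overlapped for the pair Zc3h12c and Dusp2. After LPS the order changed, and Dusp2 was at the top of the WT libraries with 117 ± 7.90 CPM per kb, followed by Zfp36 (94.9 ± 4.83) and Dusp1 (93.4 ± 5.98), whose libraries overlapped. Zc3h12a (43.5), Dusp16 (35.5) and Zc3h12c (22.7) followed, and Rc3h1 was at 8.18 CPM per kb. Zfp36l2 (5.83), Dusp5 (5.35) and Zfp36l1 (4.76 CPM per kb) were lowest after LPS, and neighbours among these 3 overlapped. The order in KO libraries was the same in both conditions, except that Dusp2 and Zc3h12c changed places in UT cells, and in KO LPS libraries Dusp2 (93.2 ± 2.12) also overlapped Zfp36 (86.6 ± 7.27 CPM per kb). There Rc3h1 (7.25) also overlapped Zfp36l2 (6.38), while Dusp5 (5.36) and Zfp36l1 (4.51 CPM per kb) did not overlap. The exon lengths of Zfp36l1, Zc3h12c and Dusp1 come from gene models with another version number than that of the count table, so their levels per length are less certain.

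**Figure D1:**
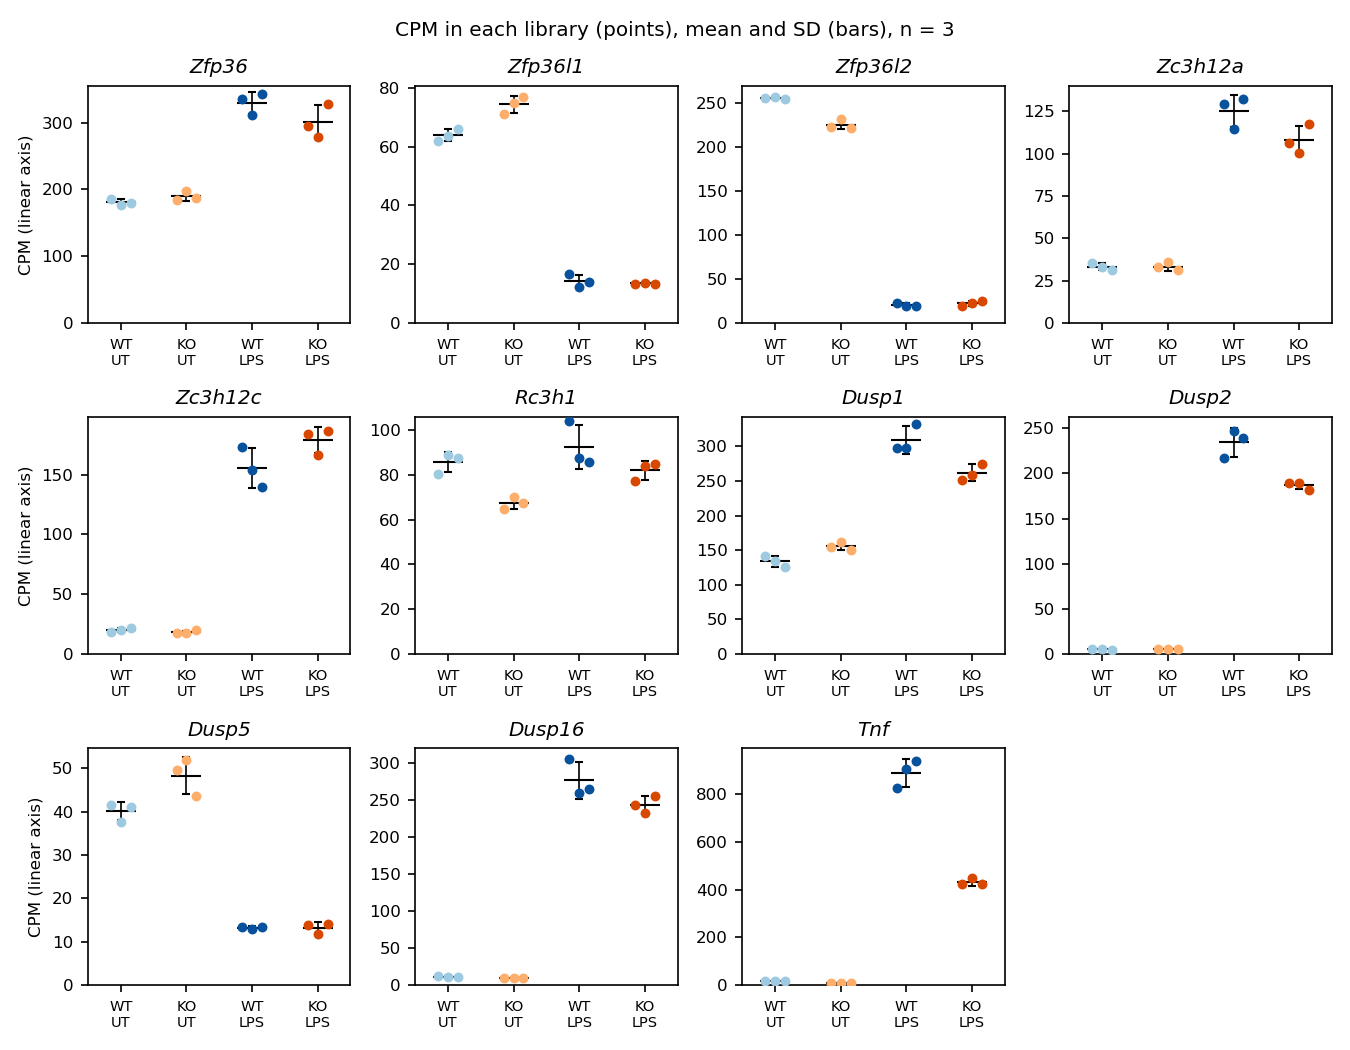
CPM (linear axes) of the 10 genes and Tnf in the 4 groups of 3 libraries, with each library as a point and the mean and SD as bars. Dusp2 rose from at most 5.89 CPM in UT libraries to between 182 and 247 CPM after LPS, while Zfp36l2 fell from at least 222 CPM to 25.0 CPM or less in every LPS library.

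The first question was how these genes responded to LPS in control cells. After LPS, 6 of the 10 genes rose in WT cells, 3 fell and Rc3h1 did not pass the test. Over all 15523 genes tested, 38% were higher and 35.3% lower after LPS (edgeR adjusted p below 0.05), so most genes of these cells moved. With an absolute log2 fold change above 1 added, the criteria of the study, 5 of the 10 rose and 3 fell, against 19.1% and 18.7% of all genes. The median log2 fold change of the 10 was 1.04, and that of all genes 0.05.

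Among the AU-rich element binding proteins, the family members moved apart. Zfp36 encodes tristetraprolin and lies on the minus strand of chr7:28376784-28380253 (GRCm38). Its level was 186, 177 and 180 CPM in WT UT and 335, 311 and 343 CPM in WT LPS libraries, a 1.82-fold rise (log2 0.87 ± 0.06, SE, edgeR adjusted p = 3.79e-11). Every LPS library stood above every UT library. Zfp36l2 (chr17:84183931-84187947, minus strand) encodes the related protein BRF2. It was at 256, 258 and 255 CPM in WT UT and at 23.1, 19.4 and 19.2 CPM in WT LPS libraries, a 12.4-fold fall (log2 -3.63 ± 0.08, edgeR adjusted p = 3.82e-20). Zfp36l1 (chr12:80107754-80113013, minus strand) encodes BRF1. It was at 61.9, 63.6 and 66.1 CPM in WT UT and at 16.5, 12.2 and 14.1 CPM in WT LPS libraries, a 4.46-fold fall (log2 -2.16 ± 0.08, edgeR adjusted p = 3.45e-16). For both genes the groups were far apart, and the lowest LPS library of Zfp36l1 rested on 271 counts. All 3 genes overlap an exon of another gene on the opposite strand (Gm44710, AC132455.1 and Gm26669), and no source states whether the counting used strand.

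Within this family the mRNA shifted to Zfp36. By CPM per kb, Zfp36 made up 35.7 ± 0.763% of the summed level of the 3 genes in WT UT and 90.0 ± 0.963% in WT LPS libraries (SD, n = 3). Zfp36l2 went from 49.7 ± 0.515% to 5.53 ± 0.523%, and Zfp36l1 from 14.6 ± 0.513% to 4.50 ± 0.518%. In KO cells the share of Zfp36 was 38.1 ± 0.411% in UT and 88.8 ± 0.804% in LPS libraries. With the length of 1 transcript in place of all exons the Zfp36 share was 40.9% in WT UT and 91.8% in WT LPS libraries.

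**Figure D2:**
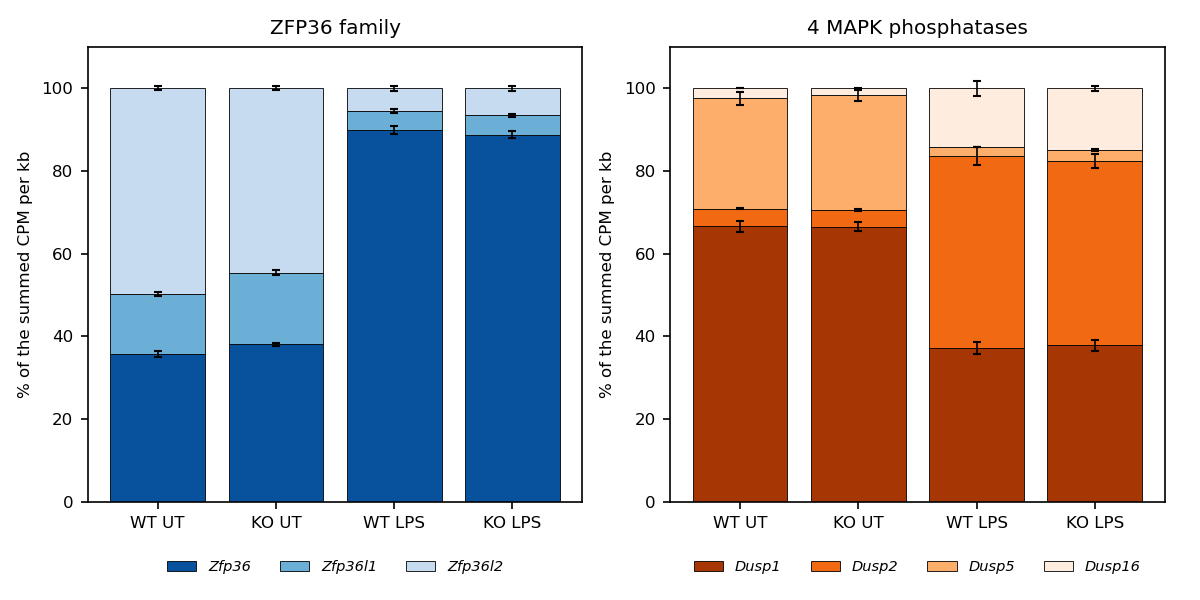
Share of each gene (% of the summed CPM per kb) in the ZFP36 family of 3 (left) and among the 4 MAPK phosphatases (right), as stacked means with the SD over 3 libraries drawn at the top of each segment. Zfp36 went from 35.7% to 90.0% of its family in WT cells, and Dusp2 from 4.29% to 46.5% of the phosphatases.

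The Regnase-type genes rose together, while the Roquin gene did not pass the test. Zc3h12a (Regnase-1, chr4:125118423-125127840, minus strand) was at 35.7, 32.9 and 31.5 CPM in WT UT and at 129, 114 and 132 CPM in WT LPS libraries. This was a 3.76-fold rise (log2 1.91 ± 0.07, edgeR adjusted p = 6.71e-16), with no overlap between the groups. Zc3h12c (chr9:52111344-52168572, minus strand) encodes a protein with the same type of zinc finger and nuclease domain. It went from 18.4, 19.9 and 21.7 CPM in WT UT to 173, 154 and 140 CPM in WT LPS libraries, a 7.78-fold rise (log2 2.96 ± 0.08, edgeR adjusted p = 1.82e-18), again without overlap. An exon of Zc3h12c overlaps Mir6244 on the opposite strand. Rc3h1 (Roquin-1, chr1:160906418-160974978, plus strand) was at 80.4, 88.7 and 87.6 CPM in WT UT and at 104, 87.7 and 86.0 CPM in WT LPS libraries. These groups overlapped, and the log2 fold change was 0.11 ± 0.07 (edgeR adjusted p = 0.143), with a 95% interval of -0.03 to 0.26. Its direction in WT cells turned with upper-quartile scaling (log2 -0.07), which moved the median of all genes to -0.14. Without WT LPS replicate 3 the rise of Rc3h1 passed the test (log2 0.16, edgeR adjusted p = 0.0363), as it did with protein-coding genes only (log2 0.19, 0.0121) and with the share of small structured RNAs as a covariate (log2 0.38, 5.70e-04). Without WT LPS replicate 1 it was at 0.0199 (0.775).

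The phosphatases split by gene. Dusp2 encodes a nuclear phosphatase of immune cells (chr2:127336159-127338376, plus strand). It was at 5.64, 5.19 and 4.83 CPM in WT UT, on 227 to 241 counts per library, and at 217, 247 and 240 CPM in WT LPS libraries. The rise was 44.9-fold (log2 5.49 ± 0.08, edgeR adjusted p = 1.98e-23). Dusp16 encodes a phosphatase known to act on JNK and p38 (chr6:134715468-134792625, minus strand). It went from 11.95, 11.3 and 11.2 CPM in WT UT to 306, 261 and 265 CPM in WT LPS libraries, a 24.2-fold rise (log2 4.60 ± 0.08, edgeR adjusted p = 2.99e-22). Dusp1 encodes MKP-1, the phosphatase best known for limiting p38 in LPS-treated macrophages (chr17:26505590-26562128, minus strand). It was at 141, 134 and 126 CPM in WT UT and at 297, 298 and 332 CPM in WT LPS libraries, a 2.31-fold rise (log2 1.21 ± 0.06, edgeR adjusted p = 9.93e-14). The groups did not overlap for any of these 3 genes. Dusp5 encodes a nuclear ERK phosphatase (chr19:53529109-53542431, plus strand) and went the other way. It was at 41.5, 37.7 and 41.1 CPM in WT UT and at 13.3, 12.9 and 13.5 CPM in WT LPS libraries, a 3.03-fold fall (log2 -1.60 ± 0.08, edgeR adjusted p = 1.33e-13). By CPM per kb, Dusp1 went from 66.6 ± 1.43% to 37.2 ± 1.47% of the summed level of the 4 phosphatases in WT cells, Dusp2 from 4.29 ± 0.149% to 46.5 ± 2.21%, Dusp16 from 2.42 ± 0.0298% to 14.2 ± 1.73% and Dusp5 from 26.7 ± 1.52% to 2.13 ± 0.0723%. Dusp1 and Dusp5 overlap exons of Ergic1 and AC137853.2 on the opposite strand.

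In KO cells all 10 genes passed the test for LPS against UT, with 7 rising and 3 falling. Over all genes, 35.1% rose and 37.7% fell in KO cells. By the criteria of the study 4 of the 10 rose and 3 fell, against 17.7% and 19.3% of all genes. The median was 0.71 for the 10 genes and -0.06 for all genes. Dusp2 rose 32.7-fold (log2 5.03 ± 0.08, edgeR adjusted p = 7.20e-23), Dusp16 25.8-fold (log2 4.69), Zc3h12c 9.80-fold (log2 3.29) and Zc3h12a 3.25-fold (log2 1.70). Dusp1 rose 1.68-fold (log2 0.75 ± 0.06, edgeR adjusted p = 3.38e-10) and Zfp36 1.58-fold (log2 0.66 ± 0.06, edgeR adjusted p = 3.27e-09). The raw Zfp36 counts were 6383, 6731 and 7392 in KO UT libraries of 29968808, 29430634 and 33629094 total counts. In KO LPS libraries of 31762834, 32607820 and 33608859 total counts they were 7682, 7426 and 8968. Zfp36l2 fell 10-fold (log2 -3.32), Zfp36l1 5.51-fold (log2 -2.46) and Dusp5 3.64-fold (log2 -1.86). Rc3h1 rose 1.21-fold (log2 0.28 ± 0.07, edgeR adjusted p = 0.00112), and with upper-quartile scaling which moved the median of all genes to -0.24, this no longer passed (log2 0.10, edgeR adjusted p = 0.180). With the small RNA covariate its sign turned (-0.12, 0.455).

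**Figure D3:**
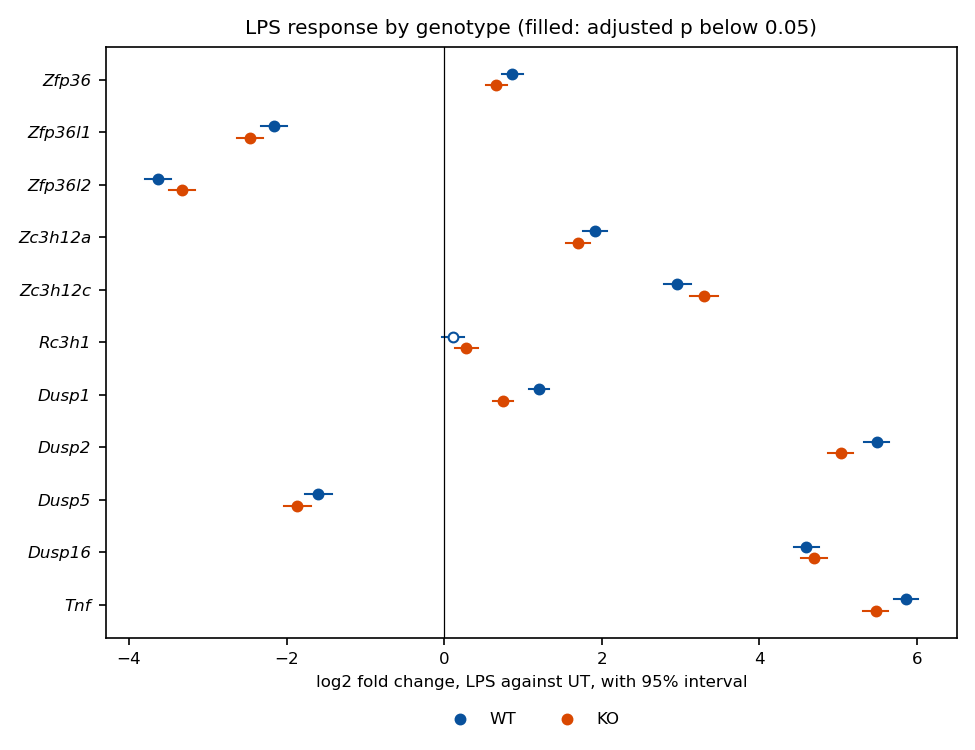
Log2 fold change of LPS against UT with its unadjusted 95% interval for the 10 genes and Tnf, in WT and KO cells, with filled points for an edgeR adjusted p below 0.05. Zfp36l2 lies at -3.63 in WT and -3.32 in KO cells and Dusp2 at 5.49 and 5.03, and the point of Rc3h1 in WT cells is open.

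The next question was whether the 10 genes differed between genotypes where Tnf itself differed. Tnf was at 826, 905 and 938 CPM in WT LPS and at 422, 450 and 425 CPM in KO LPS libraries, a log2 difference of -1.04 ± 0.06 (edgeR adjusted p = 2.76e-10), and the groups did not overlap. After LPS, 3 of the 10 genes were lower in KO cells (Dusp2, Dusp1 and Zc3h12a) and 0 were higher. Over all 15523 genes, 6.54% were lower and 7.78% higher in KO LPS libraries. At an unadjusted edgeR p below 0.05, 6 of the 10 were lower and 1 higher, against 14% and 14.6% of all genes. DESeq2 called 2 of the 10 lower and 0 higher, against 7.06% and 9.24%. None of the 10 reached an absolute log2 fold change above 1 (0 by edgeR and 0 by DESeq2), which with the adjusted p 1.25% of all genes did. The median log2 difference of the 10 genes was -0.15, against -0.01 over all genes.

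Dusp2 had the largest difference of the 10. It was at 189, 189 and 182 CPM in KO LPS libraries, below all WT LPS libraries (217 to 247 CPM), a 1.25-fold lower level (log2 -0.33 ± 0.06, edgeR adjusted p = 8.61e-04). Dusp1 was at 251, 259 and 275 CPM in KO LPS libraries, also below all WT LPS libraries (297 to 332 CPM), with a log2 difference of -0.24 ± 0.06 (edgeR adjusted p = 0.0114). Zc3h12a was at 106.3, 100.7 and 117.5 CPM in KO LPS libraries, where the highest lay above the lowest WT LPS library (114 CPM). Its log2 difference was -0.21 ± 0.07 (edgeR adjusted p = 0.0493, and 0.0788 with the replicate block). It did not pass with DESeq2 (adjusted p = 0.0561), RLE scaling (0.0580), no filter on low counts (0.0728) or the compared groups only (0.0798). The call of Zc3h12a was also lost without WT LPS replicate 1 (edgeR adjusted p = 0.0624), WT LPS replicate 3 (0.144), KO LPS replicate 1 (0.149) or KO LPS replicate 2 (0.215). The call of Dusp1 was lost without WT LPS replicate 3 (edgeR adjusted p = 0.0517) or KO LPS replicate 1 (0.0670), and 1 call, Dusp2, was left without the latter library.

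For the other 7 genes the difference after LPS did not pass the test. Dusp16 was at 244, 232 and 256 CPM in KO LPS libraries, below all WT LPS libraries (261 to 306 CPM), with a log2 difference of -0.18 ± 0.06 (edgeR adjusted p = 0.0583). Rc3h1 was at 77.2, 84.2 and 84.7 CPM, just below the lowest WT LPS library (86.0 CPM), with a log2 difference of -0.17 ± 0.07 (edgeR adjusted p = 0.0994). Without WT LPS replicate 3 both passed (edgeR adjusted p = 0.0386 for Dusp16 and 0.0399 for Rc3h1), while without WT LPS replicate 1 Dusp16 moved to -0.11 (0.194) and Rc3h1 to -0.0815 (0.377). Dusp16 also passed after a filter at a mean of 1 CPM (0.0297). Zc3h12c pointed the other way from its relative Zc3h12a, at 184, 166 and 186 CPM in KO LPS libraries against 140 to 173 CPM in WT, with a log2 difference of 0.20 ± 0.07 (edgeR adjusted p = 0.0774). It passed without WT LPS replicate 1 (log2 0.28, edgeR adjusted p = 0.00252) and with no filter on low counts (log2 0.23, 0.0125). Without WT LPS replicate 3 it moved to 0.13 (edgeR adjusted p = 0.259), and with the share of small structured RNAs as a covariate its sign turned (-0.0936, 0.560). Zfp36, at 295, 279 and 328 CPM in KO LPS libraries, overlapped the WT LPS libraries, and its log2 difference was -0.13, with a 95% interval of -0.26 to -0.0042 (edgeR adjusted p = 0.161). Zfp36l2 (19.7, 22.9 and 25.0 CPM), Zfp36l1 (13.3, 13.7 and 13.4 CPM) and Dusp5 (13.8, 11.9 and 14.1 CPM) overlapped their WT LPS libraries too. Their 95% intervals were -0.05 to 0.30, -0.27 to 0.10 and -0.19 to 0.19 on the log2 scale. With the small RNA covariate Zfp36l2 was at -0.056 (edgeR adjusted p = 0.838) and Zfp36l1 at -0.31 (0.107). The summed macrophage and stromal markers given above were higher in KO LPS than in WT LPS libraries, and the part of the markers in these differences was not tested. The share of small structured RNAs was lower in KO LPS libraries, and with that share as a covariate Dusp2 (log2 -0.20, edgeR adjusted p = 0.126), Dusp1 (-0.10, 0.510) and Zc3h12a (-0.17, 0.329) did not pass, while Rc3h1 (-0.40, 0.00134) and Dusp16 (-0.34, 0.00668) did.

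**Figure D4:**
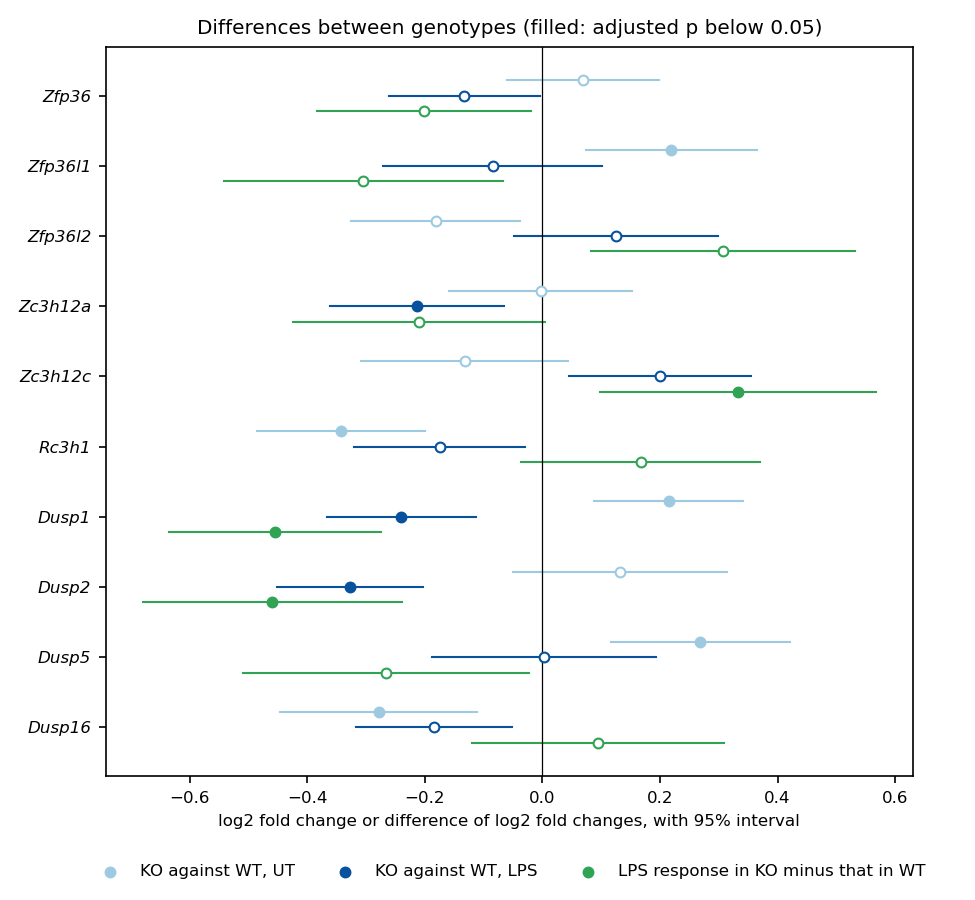
Log2 difference of KO against WT in UT and in LPS cells, and the LPS response in KO minus that in WT (difference of log2 fold changes), for the 10 genes with unadjusted 95% intervals and filled points for an edgeR adjusted p below 0.05. For Dusp1 the UT point lies at 0.21 and the LPS point at -0.24, and both are filled.

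Before stimulation 5 of the 10 genes differed between genotypes, by 1.16- to 1.27-fold. Dusp5, Zfp36l1 and Dusp1 were higher in KO cells and Rc3h1 and Dusp16 lower. Over all genes, 14.1% were higher and 9.69% lower in KO UT libraries. At an unadjusted edgeR p below 0.05, 3 of the 10 were higher and 3 lower, against 18.7% and 15.5% of all genes. DESeq2 called 0 higher and 3 lower, against 11.2% and 18.1%. By the criteria of the study 0 of the 10 were called with edgeR and 0 with DESeq2, against 1.82% of all genes. The median log2 difference was 0.03 for the 10 genes and 0.00 for all genes. Tnf was at 14.8, 14.98 and 16.2 CPM in WT UT and at 9.51, 10.5 and 9.10 CPM in KO UT libraries (log2 -0.66 ± 0.07, edgeR adjusted p = 1.29e-06).

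Among the higher genes, Dusp5 was at 49.6, 51.8 and 43.5 CPM in KO UT libraries, above all WT UT libraries (37.7 to 41.5 CPM), with a log2 difference of 0.27 ± 0.07 (edgeR adjusted p = 0.00947). Zfp36l1 was at 71.1, 74.9 and 77.0 CPM, above the 61.9 to 66.1 CPM of WT UT libraries (log2 0.22 ± 0.07, edgeR adjusted p = 0.0249). Dusp1 was at 154, 161 and 151 CPM, above the 126 to 141 CPM of WT UT libraries (log2 0.21 ± 0.06, edgeR adjusted p = 0.0129). All 3 passed with upper-quartile scaling too (edgeR adjusted p = 0.0163, 0.031 and 0.0262 in the same order), and with RLE scaling Dusp5 passed (0.0481) while Zfp36l1 (0.129) and Dusp1 (0.0914) did not. DESeq2, whose size factors moved the median of all genes by -0.07, gave 0 of the 10 genes higher and 3 lower, with log2 0.20 for Dusp5, 0.15 for Zfp36l1 and 0.14 for Dusp1 and adjusted p of 0.0566, 0.138 and 0.0790. Over all genes the split went from 2196 higher and 1504 lower with edgeR to 1744 higher and 2802 lower with DESeq2.

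Rc3h1 was the most clearly lower gene of the 10 in UT cells, at 64.8, 70.2 and 67.6 CPM in KO UT libraries against 80.4 to 88.7 CPM in WT UT (log2 -0.34 ± 0.07, edgeR adjusted p = 7.77e-04). Its call was kept without any single library (adjusted p of at most 0.00802), but with the small RNA covariate its sign turned (log2 0.10, edgeR adjusted p = 0.765). Dusp16 was at 10.0, 9.37 and 8.98 CPM in KO UT libraries, below the 11.2 to 11.95 CPM of WT UT (log2 -0.28 ± 0.08, edgeR adjusted p = 0.0139). Zfp36l2 did not pass although its groups did not overlap, at 223, 232 and 222 CPM in KO UT libraries against 255 to 258 CPM in WT UT (log2 -0.18 ± 0.07, edgeR adjusted p = 0.0619), and DESeq2 (adjusted p = 0.00156) and 5 of the other fits called it lower, while the small RNA covariate turned its sign (0.17, 0.679). The KO UT libraries of Zfp36 (185, 198 and 187 CPM), Zc3h12a (32.9, 35.8 and 31.2 CPM), Zc3h12c (17.6, 17.3 and 19.7 CPM) and Dusp2 (5.35, 5.88 and 5.89 CPM) overlapped the WT UT libraries. Their 95% intervals were -0.06 to 0.20, -0.16 to 0.15, -0.31 to 0.04 and -0.05 to 0.31 on the log2 scale.

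Several UT calls were lost without a single library. These were Zfp36l1 without WT UT replicate 1 (edgeR adjusted p = 0.0953) or 2 (0.0773) or KO UT replicate 2 (0.0764) or 3 (0.0920), Dusp1 without WT UT replicate 3 (0.0927) or KO UT replicate 2 (0.0694), Dusp5 without WT UT replicate 2 (0.0655) or KO UT replicate 2 (0.0749), and Dusp16 without WT UT replicate 1 (0.0590) or KO UT replicate 3 (0.0685). The count of calls was 2 without KO UT replicate 2. The share of small structured RNAs was higher in every KO UT library than in every WT UT library, and with that share as a covariate 1 of the 10 genes, Zfp36l1, passed (log2 0.67, edgeR adjusted p = 0.0331). Dusp5 was then at 0.0522 (0.943), and the signs of Dusp1 (-0.0482, 0.894) and Dusp16 (0.0204, 0.970) turned, so this share and the genotype can hardly be told apart in UT cells. The neutrophil marker sum also stood higher in KO UT libraries (47.9 to 53.4 against 24.0 to 25.6 CPM), with Ly6g at 0, and its part in these differences was not tested.

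The LPS response itself differed between genotypes for 3 of the 10 genes, tested as the log2 response in KO minus that in WT. It was smaller in KO cells for Dusp2 and Dusp1 and larger for Zc3h12c. Over all genes, 9.5% had a lower and 7.32% a higher value by this test, and the split of 1475 lower and 1136 higher went to 1232 lower and 2154 higher with DESeq2. At an unadjusted edgeR p below 0.05, 5 of the 10 genes were lower and 2 higher, against 15.5% and 13.5% of all genes. DESeq2 called 2 lower and 2 higher, against 7.94% and 13.9%. By the criteria of the study 0 of the 10 were called with edgeR and 0 with DESeq2, against 2.16% of all genes. The median of the 10 genes was -0.21, against -0.01 over all genes. The Tnf difference was -0.38 ± 0.09 (edgeR adjusted p = 0.00763), and its sign turned with the small RNA covariate (0.082, 0.898).

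The Dusp2 response was 44.9-fold in WT and 32.7-fold in KO cells, a log2 difference of -0.46 ± 0.11 (edgeR adjusted p = 0.00448). The Dusp1 response was 2.31-fold in WT and 1.68-fold in KO cells, a log2 difference of -0.45 ± 0.09 (edgeR adjusted p = 8.98e-04). With the small RNA covariate neither the Dusp2 nor the Dusp1 difference passed (log2 -0.0892 and -0.0515, edgeR adjusted p = 0.904 and 0.946). For Zc3h12c the response was 7.78-fold in WT and 9.80-fold in KO cells, a log2 difference of 0.33 ± 0.11 (edgeR adjusted p = 0.0472, 0.0712 with the replicate block and 0.0668 with protein-coding genes only), and with the small RNA covariate its sign turned (-0.53, 0.181). The Zc3h12c call was lost without any of 8 libraries, namely WT UT replicates 2 and 3 (edgeR adjusted p = 0.0843 and 0.147), KO UT replicates 1 and 2 (0.105 and 0.121), WT LPS replicates 2 and 3 (0.0960 and 0.0904) and KO LPS replicates 1 and 3 (0.101 and 0.114). Zfp36l2 (0.31 ± 0.11, edgeR adjusted p = 0.0563) and Zfp36l1 (-0.30 ± 0.11, 0.0730) fell short of the threshold, and so did Dusp5 (-0.27), Zc3h12a (-0.21), Zfp36 (-0.20), Rc3h1 (0.17) and Dusp16 (0.09). Of these, Zfp36l2 passed without WT LPS replicate 1 (0.00273) or KO LPS replicate 1 (0.0145), Zfp36l1 without WT LPS replicate 2 (0.0165), Zfp36 without KO LPS replicate 3 (0.0399) and Rc3h1 without WT LPS replicate 1 (0.0161). Zfp36l2 also passed with DESeq2 (0.00349), RLE scaling (0.0147), upper-quartile scaling (0.0394) and no filter on low counts (0.0126). Zfp36l1 passed with protein-coding genes only (0.0323) and after a filter at a mean of 1 CPM (0.0467), and Zfp36 with protein-coding genes only (0.0463). Without WT LPS replicate 1 Zfp36l1 moved to -0.18 (0.236), and the count of the 10 genes called was 5. With the small RNA covariate the signs of Zfp36l2 (-0.23), Rc3h1 (-0.51), Dusp5 (0.062) and Dusp16 (-0.36) turned, and 0 of the 10 passed. Zfp36l1 then moved to -0.99 (edgeR adjusted p = 0.0642).

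The wider decay machinery was read from a list of RNA-binding and decay genes. Of 30 listed genes, 29 were tested, and in WT cells 16 rose and 10 fell with LPS, where 38% and 35.3% of all genes did. Their median log2 fold change was 0.16 (0.05 over all genes). In KO cells 16 rose and 9 fell, where 35.1% and 37.7% of all genes did (median 0.28, and -0.06 over all genes). The largest increase was that of Dcp2, the decapping enzyme, which went from 56.7, 56.7 and 55.2 CPM in WT UT to 227, 208 and 203 CPM in WT LPS libraries (log2 1.92 ± 0.06, edgeR adjusted p = 3.19e-17) and by log2 2.14 in KO cells. The largest decrease was that of Zc3h12b, a Regnase relative of low level, with 32 to 46 counts per WT UT and 0 to 2 per WT LPS library. After LPS, 1 of the 29 genes was higher and 1 lower in KO than in WT cells, where 7.78% and 6.54% of all genes were. Arid5a, which is known to stabilise cytokine mRNAs against Regnase-1, was at 30.2, 30.6 and 30.3 CPM in KO LPS libraries, below the 36.8, 38.2 and 35.6 CPM of WT LPS (log2 -0.28 ± 0.06, edgeR adjusted p = 0.00591). With the small RNA covariate Arid5a was at -0.32 ± 0.11 (0.0588). Elavl1, which encodes the stabilising AU-rich element binder HuR, was at 91.6, 88.1 and 82.2 CPM in KO LPS against 85.8, 66.8 and 61.8 CPM in WT LPS libraries (log2 0.29 ± 0.09, edgeR adjusted p = 0.0363, and 0.0597 with the replicate block). The Elavl1 groups overlapped, and its call was lost without WT LPS replicate 2 (0.145) or 3 (0.151) or KO LPS replicate 1 (0.134) or 2 (0.0884), and without WT LPS replicate 1 it was at log2 0.44 (3.72e-05). The call was also lost with protein-coding genes only (0.0518) and with the compared groups only (0.0765), and the sign turned with the small RNA covariate (log2 -0.11, 0.514). In UT cells 1 of the 29 was higher in KO and 8 were lower, where 14.1% and 9.69% of all genes were. The higher gene was Btg2 (log2 0.22 ± 0.05, edgeR adjusted p = 0.00382), which was at 0.15 with DESeq2 (0.0135) and at 0.40 with the small RNA covariate (0.0448). The lowest of those called was Cnot6l, a catalytic subunit of the deadenylase (log2 -0.34 ± 0.08, edgeR adjusted p = 0.00455), whose sign turned with the small RNA covariate (log2 0.36, 0.255). By the test of the difference in response 4 of the 29 were higher and 0 lower, against 7.32% and 9.5% of all genes, with Elavl1 the largest (0.42 ± 0.13, edgeR adjusted p = 0.0242). Its call was lost without WT UT replicate 3 (0.0661), KO UT replicate 1 (0.0766), WT LPS replicate 2 (0.0793) or KO LPS replicate 1 (0.0662), and with the small RNA covariate its sign turned (-0.75, 0.0532).

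Of 13 other DUSP genes, 12 were tested, and in WT cells 3 rose and 7 fell with LPS (median log2 fold change -0.58), where 38% and 35.3% of all genes did. In KO cells 5 rose and 6 fell (median -0.71), where 35.1% and 37.7% of all genes did. Dusp14 had the largest increase in WT cells but few counts (2 to 10 per WT UT and 25 to 27 per WT LPS library). Dusp3 had the largest decrease, from 242, 253 and 243 CPM to 38.2, 35.6 and 36.7 CPM (log2 -2.74 ± 0.06, edgeR adjusted p = 7.37e-21). The largest decrease in KO cells was that of Dusp8, at 41 to 56 counts per KO UT and 4 to 9 per KO LPS library. After LPS 3 of the 12 were higher in KO than in WT cells and 0 lower, against 7.78% and 6.54% of all genes. Dusp6, an ERK phosphatase of the cytoplasm, was at 23.0, 24.5 and 22.3 CPM in KO LPS libraries, above the 17.4, 16.6 and 15.7 CPM of WT LPS (log2 0.49 ± 0.08, edgeR adjusted p = 2.96e-04). In UT cells 0 of the 12 were higher and 1 lower (14.1% and 9.69% of all genes), and the lower was Dusp6, at 15.8, 15.7 and 15.3 CPM in KO against 20.4, 18.2 and 18.1 CPM in WT libraries (log2 -0.28 ± 0.08, edgeR adjusted p = 0.00933, and 0.0654 without WT UT replicate 1). By the test of the difference in response 3 of the 12 were higher and 0 lower (7.32% and 9.5% of all genes), and the value of Dusp6 was 0.76 ± 0.11 (edgeR adjusted p = 8.54e-05). With the small RNA covariate the Dusp6 difference after LPS still passed (log2 0.43, edgeR adjusted p = 0.0392), while the UT difference (log2 -0.17, edgeR adjusted p = 0.756) and the response difference (0.60, 0.424) did not.

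Of 33 listed genes of MAPK signalling, 30 were tested, and 15 rose and 9 fell with LPS in WT cells (median log2 fold change 0.31), where 38% and 35.3% of all genes did. In KO cells 18 rose and 9 fell (median 0.47), where 35.1% and 37.7% of all genes did. Map3k8, the kinase upstream of ERK in LPS signalling, rose by log2 2.67 ± 0.06 in WT and 2.65 ± 0.06 in KO cells (edgeR adjusted p = 1.35e-20 and 1.59e-20). Mknk1, a kinase downstream of ERK and p38, had log2 fold changes of -1.21 in WT and -1.197 in KO cells. After LPS 5 of the 30 were higher in KO and 2 lower, against 7.78% and 6.54% of all genes. Mapkapk3, which encodes the MK2 relative MK3, was at 54.1, 61.9 and 57.5 CPM in KO LPS libraries, below the 78.8, 79.7 and 77.4 CPM of WT LPS (log2 -0.44 ± 0.06, edgeR adjusted p = 2.32e-05). By the test of the difference in response 5 of the 30 were higher and 1 lower, against 7.32% and 9.5% of all genes. The lower was Mapkapk3 (-0.36 ± 0.08, edgeR adjusted p = 0.00296), at -0.36 ± 0.20 (0.413) with the small RNA covariate. The largest increase was that of Ywhab (0.55 ± 0.14, edgeR adjusted p = 0.00727, with the sign reversed to -0.83 by the small RNA covariate). Ywhab, which encodes a phosphoprotein-binding adaptor, was at 171, 173 and 185 CPM in KO LPS and at 174, 128 and 115 CPM in WT LPS libraries (log2 0.34 ± 0.10, edgeR adjusted p = 0.0233). WT LPS replicate 1 lay among the KO LPS values, and the call was lost without WT LPS replicate 2 (0.113) or 3 (0.0996) or KO LPS replicate 3 (0.0896). It was also lost with the compared groups only (0.0689). Without WT LPS replicate 1 Ywhab was at log2 0.54 (3.86e-07), and with the small RNA covariate its sign turned (-0.125, 0.389). In UT cells 1 of the 30 was higher in KO and 2 were lower, where 14.1% and 9.69% of all genes were. The higher gene was Mapk9, which encodes a JNK (log2 0.37 ± 0.06, edgeR adjusted p = 1.13e-04, and 0.68 with the small RNA covariate). Of the lower genes Map2k3, a kinase of p38, had the larger difference (log2 -0.21 ± 0.06, edgeR adjusted p = 0.0104). The Map2k3 call was lost without WT UT replicate 2 (0.0560) or KO UT replicate 3 (0.0585) and with the small RNA covariate (log2 -0.11, 0.757).

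Possible target mRNAs of the AU-rich element binding proteins were counted last. Of 24 cytokine and early response genes known to carry AU-rich elements, 22 were tested, and 19 rose and 2 fell with LPS in each genotype, against 38% and 35.3% of all genes in WT and 35.1% and 37.7% in KO cells. The median log2 fold change was 6.13 in WT and 5.50 in KO cells, with Csf3 and Ifnb1 at their lower bounds. Csf3, with a highest count of 1 in WT UT and 0 in KO UT libraries, was at least 589-fold higher in WT LPS and at least 358-fold higher in KO LPS libraries, taking 3 counts in each UT library as the floor. Vegfa had log2 fold changes of -2.76 in WT and -2.73 in KO cells. After LPS 14 of the 22 were lower in KO than in WT cells and 2 were higher, against 6.54% and 7.78% of all genes, with a median log2 difference of -0.36 (-0.01 over all genes). Tnf is a member of this list and had the lowest value among those called. Cxcl1 was higher, at 411, 402 and 383 CPM in KO LPS against 229, 245 and 246 CPM in WT LPS libraries (log2 0.73 ± 0.06, edgeR adjusted p = 1.49e-08). The count of lower genes was 9 without KO LPS replicate 1, without KO LPS replicate 3 or with the small RNA covariate. In UT cells 5 were higher and 2 lower in KO cells (14.1% and 9.69% of all genes), with a median log2 difference of 0.04 when the 2 genes at the floor in both groups are left out, and with Cxcl1 at 5.93, 6.37 and 5.61 CPM in KO and 1.36, 1.54 and 1.47 CPM in WT libraries. Il10 had the largest difference in response among those called (-1.43 ± 0.11, edgeR adjusted p = 3.87e-08), at 4.91, 4.35 and 5.19 CPM in WT UT, 9.34, 7.90 and 8.70 CPM in KO UT, 143, 161 and 144 CPM in WT LPS, and 99.7, 102 and 95.6 CPM in KO LPS libraries. By that test 9 of the 22 had a lower value in KO and 0 a higher one, against 9.5% and 7.32% of all genes.

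Other genes followed nearly the pattern of Zfp36 and of Dusp1 over the 4 groups. Likeness was the Euclidean distance of the 4 group means of log2 CPM, each gene centred on its own mean, over 9084 protein-coding genes whose mean level reached 5 CPM. Nearest to Zfp36 were Snapc3 (distance 0.0126), Zfp607a (0.0241) and Slc27a4 (0.0263), against a median distance of 0.958. Nearest to Dusp1 were Sertad3 (0.0376), Fbxl15 (0.0432) and S100a10 (0.0718), against a median of 1.14. These distances rest on 4 group means and are a description.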

How the data were processed

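The authors made stranded total RNA libraries with globin depletion (TruSeq). Paired-end reads were mapped by HISAT2 2.1.0 on GRCm38 and counted per gene with featureCounts 2.0.0 (versions from the submitters' processing notes). The deposited table holds raw counts. The annotation release, strand and multi-mapping settings are not given in the sources used here. Symbols came from GENCODE M21, which matched 48144 identifiers; 382, with 0.122% of counts, were unmatched.

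Counts of all 12 libraries entered edgeR 4.0.16 (quasi-likelihood test, R 4.3.3, limma 3.58.1), with TMM scaling, filterByExpr (minimum count 10, minimum total 15, 15523 genes kept), 1 model of 4 group means and Benjamini-Hochberg adjustment over all genes kept. A gene counted as changed at an adjusted p below 0.05. The common biological coefficient of variation was 0.0712. Error values of log2 differences are SE. The study used DESeq2, here an alternative (1.42.0). Other alternatives were RLE and upper-quartile scaling, other filters, protein-coding genes only, only the groups compared, a small RNA covariate, a replicate block and leaving out each library. No fit used unadjusted library totals, so the part of the scaling in the size of the LPS changes was not tested beyond these scalings. The batch number of the labels equals the replicate number, so equal numbers are paired by label. Over 18 pairs the deviations from group means correlated at r from -0.0631 to 0.0373, and 0 pairs were over 0.1. Replicates differed beyond counting noise (chi-square at least 3.8 per degree of freedom), most between WT LPS libraries 1 and 3 (46.4). The floor of 3 counts covers counting error only. The Zfp36 share by transcript length and the alternatives of the AU-rich target count were added after seeing the data.

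The 10 genes, the lists and the tests were chosen with earlier results of these data known. Named were all 10 genes, Tnf, the largest called increase and decrease of each list in each comparison, and the 3 nearest genes to Zfp36 and Dusp1. Figures used matplotlib 3.10.9 in Python 3.11.15.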

Additional observations from a re-analysis of the deposited data

Results flagged for a closer look

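The LPS response differed between genotypes by the test of the difference itself for 3 of the 10 genes and for Tnf. The response in KO minus that in WT, on the log2 scale, was -0.46 for Dusp2, -0.45 for Dusp1, 0.33 for Zc3h12c and -0.38 for Tnf. With the share of small structured RNAs as a covariate none of these 4 passed, and the values were -0.09, -0.05, -0.53 and 0.08.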

How the results depend on the processing

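The LPS counts, with most of the 10 genes far past the threshold, were 9 to 10 in WT cells and 10 in KO cells without any single library, 9 to 10 in each genotype under the other fits, and 8 in WT and 7 in KO cells by the criteria of the study. None of these fits used unadjusted library totals. For KO against WT after LPS the count of 3 became 5 with upper-quartile scaling and 5 with protein-coding genes only, where Rc3h1 and Dusp16 were added, 0 by the criteria of the study, and 1 to 3 without single libraries. With a mean CPM of at least 1 it was 4, where Dusp16 was added. In UT cells the count of 5 became 3 with DESeq2, 1 with the small RNA covariate, 0 by the criteria of the study, and 2 to 5 without single libraries. For the difference in response the count of 3 became 0 with the small RNA covariate, 0 by the criteria of the study, and 2 to 5 without single libraries. The replicate block, which pairs libraries by batch number, gave 2, 5 and 2 for these 3 comparisons, and among the 10 genes and the list genes named it changed no other call than those of Zc3h12a, Zc3h12c and Elavl1 given above.

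With the small RNA covariate, whose values did not overlap between the genotypes in UT cells or in LPS cells, the log2 differences that changed sign were, after LPS, Zfp36l2 -0.056, Zc3h12c -0.0936, Elavl1 -0.11 and Ywhab -0.125. In UT cells they were Zfp36l2 0.17, Zc3h12c 0.43, Rc3h1 0.10, Dusp1 -0.0482, Dusp2 -0.11, Dusp16 0.0204 and Cnot6l 0.36. For LPS against UT in KO cells it was Rc3h1 with -0.12. For the difference in response they were Zfp36l2 -0.23, Zc3h12c -0.53, Rc3h1 -0.51, Dusp5 0.062, Dusp16 -0.36, Tnf 0.082, Elavl1 -0.75 and Ywhab -0.83. The covariate also ended the calls of Dusp2 (-0.20), Dusp1 (-0.0998), Zc3h12a (-0.17) and Arid5a (-0.32) after LPS, of Dusp5 (0.0522), Dusp6 (-0.17) and Map2k3 (-0.11) in UT cells, and of Dusp2 (-0.0892), Dusp1 (-0.0515), Dusp6 (0.60) and Mapkapk3 (-0.36) for the difference in response. For LPS against UT in KO cells it ended the calls of Zc3h12b (-1.73) and Dusp14 (2.85). Of these, Arid5a and Mapkapk3 kept the size of their difference, and their SE rose from 0.06 to 0.11 and from 0.08 to 0.20. The response difference of Dusp6 went from 0.76 to 0.60 (SE 0.11 to 0.34) and Zc3h12a after LPS from -0.21 to -0.17 (SE 0.07 to 0.10). Dusp14 in KO cells went from 2.37 to 2.85 (SE 0.53 to 1.23). The cause was not tested. Rc3h1 in WT cells changed sign with upper-quartile scaling (-0.0711).

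The other changes of sign were in differences near 0. Zfp36 in UT cells was at -0.0038 with DESeq2 and with RLE scaling. Dusp5 after LPS was at -0.0201 with upper-quartile scaling, -0.0138 with a mean CPM of at least 1, -0.0028 with the compared groups only and -0.0327 with protein-coding genes only. Zc3h12a in UT cells was at 0.0009 with that same filter and 0.0037 with protein-coding genes only. Without single libraries Dusp5 after LPS ranged from -0.0451 to 0.0791, Zfp36l1 after LPS from -0.183 to 0.0437 and Zc3h12a in UT cells from -0.0578 to 0.0482. For the AU-rich targets lower after LPS the count was 9 with the small RNA covariate. The Zfp36 share by transcript length was 43.4% in KO UT and 90.8% in KO LPS libraries. The fit of the compared groups only gives no separate value for the difference in response, which needs all 4 groups. Low counts limit the precision of Dusp8 (4 to 14 per LPS library), Dusp14 (2 to 10 per UT library) and Zc3h12b (0 to 5 per LPS library).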
